A study of Homo sapiens with 6 samples.

Results

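The p53 pathway of NGP cells was described through 32 genes chosen by symbol: the feedback regulators of p53 around MDM2 and well-known p53 target genes in cell cycle arrest, cell death, metabolism, DNA repair and RNA control. The deposited table holds 19868 gene entries, and all 32 genes have one. Of the 32, 30 had a read in at least 1 library and 27 had enough reads to be tested, as did 13366 genes in all.

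NGP is an established human neuroblastoma cell line. The study compared 3 libraries of NGP cells with knockdown of CAMKV (CAMKV-KD, also named sh-CAMKV) with 3 libraries of control NGP cells (Control, also named sh-control). CAMKV encodes a kinase-like protein of the calmodulin-dependent kinase family. Cells of both groups were grown in RPMI-1640 medium with 20% fetal bovine serum, no drug or DNA-damaging agent is named for either, and both were profiled by RNA sequencing of total RNA. Whether the 3 libraries per group were separate cultures is not stated, and neither is the number of hairpins used. P-values therefore cover the spread among these libraries alone, and that spread may be technical.

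The p53 protein is a transcription factor that accumulates after DNA damage and other stress and switches on genes for cell cycle arrest, DNA repair, altered metabolism and cell death. MDM2, itself a p53 target, is a ubiquitin ligase that marks p53 for destruction, and its relative MDM4 blocks p53 on its target genes. NGP is known as a line with extra copies of MDM2. Gene copies and proteins were not measured here.

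The promoters of 6 of these genes are shown. Each is the 250 bases before the annotated start, 5′ to 3′ on the strand of the gene, from RefSeq on GRCh38.p14. Capitals mark a p53 half-site, the decamer that p53 binds in pairs. PLK2, RPS27L, AEN and FDXR are shown because their windows held one, whatever their values. TP53I3 and GDF15, which had the highest ratios among the tested genes of the 32, were added with their values known. Their windows held none. PLK2 rose and RPS27L fell in CAMKV-KD libraries, and AEN and FDXR were not called. Most windows without a half-site are not shown, so these 6 allow no comparison of half-sites with fold changes.
PLK2: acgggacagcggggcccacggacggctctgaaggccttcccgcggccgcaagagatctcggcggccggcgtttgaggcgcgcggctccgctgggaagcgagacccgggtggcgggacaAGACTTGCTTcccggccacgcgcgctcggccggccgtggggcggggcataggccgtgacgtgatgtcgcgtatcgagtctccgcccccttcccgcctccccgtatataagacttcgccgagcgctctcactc
RPS27L: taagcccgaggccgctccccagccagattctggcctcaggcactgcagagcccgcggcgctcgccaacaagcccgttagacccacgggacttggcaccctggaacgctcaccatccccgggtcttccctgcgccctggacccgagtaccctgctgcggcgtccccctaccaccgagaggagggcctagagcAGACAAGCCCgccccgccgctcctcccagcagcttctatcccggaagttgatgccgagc
AEN: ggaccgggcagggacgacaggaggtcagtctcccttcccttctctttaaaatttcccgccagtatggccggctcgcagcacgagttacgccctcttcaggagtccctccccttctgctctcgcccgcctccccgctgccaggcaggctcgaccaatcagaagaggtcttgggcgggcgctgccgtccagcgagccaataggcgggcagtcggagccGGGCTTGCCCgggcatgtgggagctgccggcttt
FDXR: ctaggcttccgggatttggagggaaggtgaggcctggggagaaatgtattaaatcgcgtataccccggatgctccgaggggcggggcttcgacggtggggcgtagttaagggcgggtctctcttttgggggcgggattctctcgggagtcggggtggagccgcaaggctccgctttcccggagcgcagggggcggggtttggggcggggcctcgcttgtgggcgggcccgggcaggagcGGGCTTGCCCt
TP53I3: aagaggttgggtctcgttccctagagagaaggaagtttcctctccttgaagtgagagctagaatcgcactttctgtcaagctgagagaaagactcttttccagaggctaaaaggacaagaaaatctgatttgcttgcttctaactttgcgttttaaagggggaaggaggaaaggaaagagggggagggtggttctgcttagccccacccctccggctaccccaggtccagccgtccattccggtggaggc
GDF15: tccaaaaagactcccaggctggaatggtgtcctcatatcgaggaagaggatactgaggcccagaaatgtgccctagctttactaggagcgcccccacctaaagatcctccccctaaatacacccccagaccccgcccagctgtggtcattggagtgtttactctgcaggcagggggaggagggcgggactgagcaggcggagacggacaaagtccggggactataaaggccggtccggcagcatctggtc

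The PLK2 window lies at chr5:58460087-58460336 and the RPS27L window at chr15:63157478-63157727, both on the minus strand. The AEN window lies at chr15:88621090-88621339 on the plus strand and the FDXR window at chr17:74872995-74873244 on the minus strand. The TP53I3 window lies at chr2:24084835-24085084 on the minus strand and the GDF15 window at chr19:18385908-18386157 on the plus strand. RefSeq gave a promoter for 26 of the 32 genes, and not for FBXO22, GADD45A, PHLDA3, TNFRSF10C, TP53INP1 and TRIM22. A decamer with the half-site consensus, which reads the same on both strands, occurred in 4 of the 26 windows (15.4%), the first 4 shown. AEN and FDXR carry the same decamer, GGGCTTGCCC, which begins 34 bases before the start of AEN and 11 bases before that of FDXR. PLK2 has AGACTTGCTT beginning 132 bases and RPS27L has AGACAAGCCC beginning 59 bases before the start. Of 27305 promoters of the same length in the genome, 1510 (5.53%) held such a decamer. A pair of half-sites at most 13 bases apart occurred in 0 of the 26 windows and in 8 of all (0.029%). A match is a description of letters and not a measured site, and windows without one say nothing of p53 binding elsewhere in the gene.

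Levels are given as CPM, counts brought to a common library size by TMM scaling, which sets the bulk of genes equal between libraries. Library totals were 24274441, 20238281 and 21965871 counts in CAMKV-KD and 24701564, 22364742 and 22675342 counts in Control, and a floor of 3 counts corresponds to 0.121 to 0.145 CPM. Groups were compared with edgeR's quasi-likelihood test, and a gene is called where its p, adjusted by the Benjamini-Hochberg method over all 13366 genes, is below 0.05. CAMKV itself was at 25.4, 23.2 and 25.4 CPM in CAMKV-KD libraries, against 83.9, 77.3 and 84.6 CPM in Control libraries, so 0.301 of its level remained. The knockdown was therefore visible in each of the 3 libraries. Summed adrenergic neuroblastoma markers were at 2378 to 2556 CPM in CAMKV-KD and at 2708 to 3652 CPM in Control libraries, with 1 of 12 called higher and 5 lower by the test used throughout (17.3% of all genes tested were called higher and 19.0% lower). Blood and endothelial markers summed to 0.758 to 1.79 CPM in CAMKV-KD and 0.95 to 1.42 CPM in Control libraries, with CD3E and HBB at 0. Epithelial markers summed to 0.929 to 3.66 CPM in CAMKV-KD and 1.49 to 2.34 CPM in Control libraries, with KRT18 at 0. Fibroblast markers, which mesenchymal neuroblastoma cells also express, summed to 929 to 993 CPM in CAMKV-KD and 709.7 to 891 CPM in Control libraries, with 4 of 8 called higher and 1 lower. Their part in the results below was not tested.

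The p53 pathway did not move as one in CAMKV-KD cells. MDM4 and PPM1D among the feedback genes, PLK2, the death genes PMAIP1, TP53I3 and TP53INP1, and the stress genes GDF15 and SESN2 rose, while the arrest genes CDKN1A, GADD45A and BTG2 fell. Of the 27 genes tested, 13 were called (48.1%), against 36.3% of all genes tested. Of these, 9 were higher (33.3%, against 17.3% of all genes) and 4 lower (14.8%, against 19.0% of all genes). All CAMKV-KD libraries lay on one side of all Control libraries in 18 of the 27 genes (66.7%), against 52.8% of all genes tested. The median log2 fold change of the 27 was 0.11, against 0.0045 for all genes, and ran from −0.84 for SPATA18 to 1.59 for GDF15. In bulk RNA, a change in RNA per cell cannot be told apart from a change in the share of cells that express a gene. The calls of MDM4, PPM1D, PLK2, PMAIP1, TP53I3, TP53INP1, GDF15, SESN2, CDKN1A, GADD45A and BTG2 held under every alternative setting and with any 1 library left out.

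**Figure D1:**
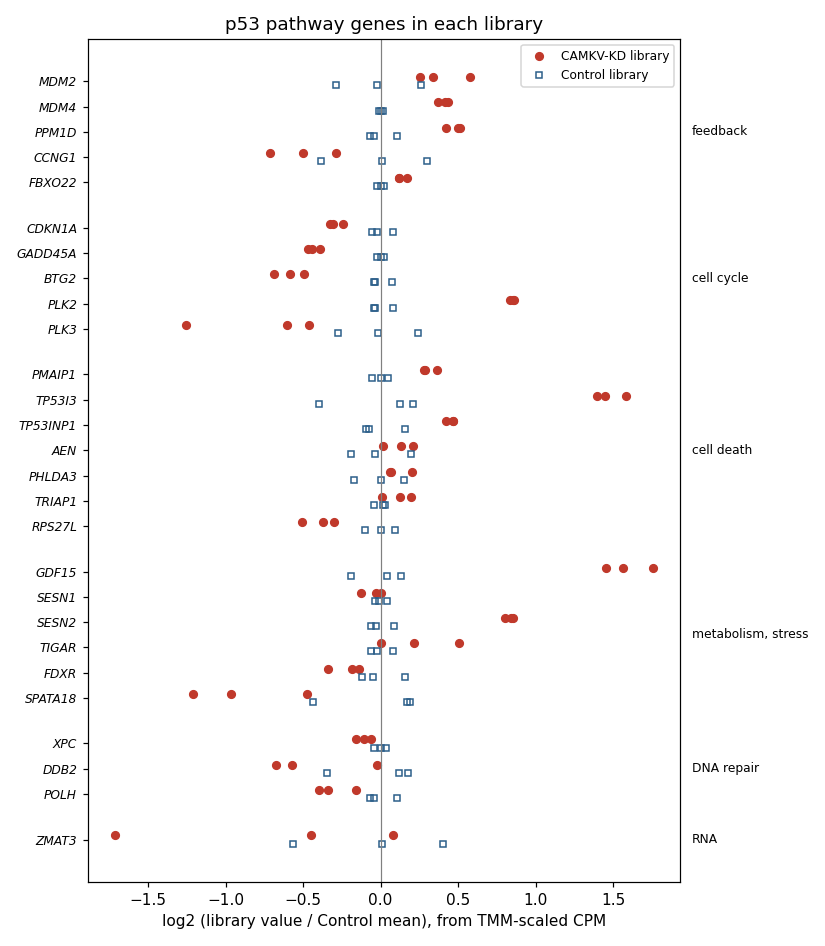
Each tested p53 pathway gene in each library, as log2 of its TMM-scaled CPM over the Control mean (x axis), grouped by role. Filled circles are CAMKV-KD libraries and open squares Control libraries; TP53I3, GDF15, PLK2 and SESN2 lie clear to the right, BTG2, GADD45A and CDKN1A to the left, and the libraries of ZMAT3 are spread widely.

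Of the 5 feedback genes, 3 rose (60.0%, against 17.3% of all genes tested) and 2 were not called. The median log2 fold change of the 5 was 0.40. MDM2 had the highest mean level per exon length of the 27 genes in both groups. It was at 1070.4, 1341 and 1137 CPM in CAMKV-KD libraries, against 734, 884 and 1077 CPM in Control libraries. The groups touched: the lowest CAMKV-KD library lay just under the highest Control library, and the Control libraries were spread over a wide range. The means were 1183 ± 141 CPM in CAMKV-KD and 898 ± 172 CPM in Control (SD, n = 3 each). The log2 fold change was 0.40 ± 0.16 (SE), which was not called (adjusted p = 0.116 in edgeR). Leaving out 1 library at a time moved it between 0.27 and 0.55, and it passed the threshold only without Control 3 (log2 fold change 0.55, adjusted p = 0.0466). MDM2 lies on chromosome 12 from 68808176 to 68850686 on the plus strand (GRCh38, GENCODE 29), and the carboxypeptidase M gene overlaps it on the other strand. The strand setting of the counts is not given in the sources used here, so reads in such overlaps cannot be assigned.

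MDM4, the MDM2 relative that masks the activation domain of p53, had almost the same ratio as MDM2 with far less spread, and rose. It was at 156, 158 and 151 CPM in CAMKV-KD libraries, against 116, 117 and 118 CPM in Control libraries. The groups lay well apart, and the log2 fold change was 0.41 ± 0.033 (SE, adjusted p = 0.000726 in edgeR). PPM1D, the WIP1 phosphatase that removes activating phosphates from p53 and its kinases, was at 79.4, 74.5 and 78.5 CPM in CAMKV-KD libraries, against 59.8, 54.0 and 53 CPM in Control libraries. It also rose in every library, with a log2 fold change of 0.48 ± 0.062 (SE, adjusted p = 0.00327 in edgeR).

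The remaining feedback genes were less clear. CCNG1 encodes cyclin G1, a p53 target that recruits a phosphatase to MDM2. It was at 110.3, 95.3 and 128 CPM in CAMKV-KD libraries, against 119.5, 157 and 192 CPM in Control libraries. The groups overlapped, and the log2 fold change of −0.49 ± 0.20 (SE) was not called (adjusted p = 0.118 in edgeR), though without Control 1 it was −0.65 with an adjusted p of 0.0451. FBXO22, a ubiquitin ligase subunit that targets methylated p53, was at 86.4, 89.3 and 86.5 CPM in CAMKV-KD libraries, against 78.3, 80.6 and 79.7 CPM in Control libraries. The groups did not overlap, but the difference was small (log2 fold change 0.14 ± 0.035 SE, adjusted p = 0.0328 in edgeR) and its call was lost when any 1 of the 6 libraries was left out (adjusted p up to 0.0912).

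**Figure D2:**
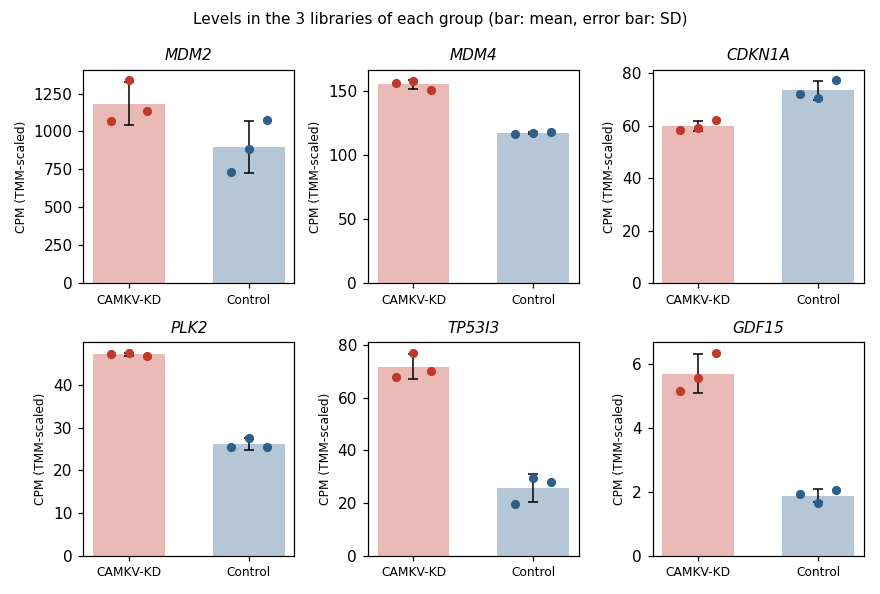
TMM-scaled CPM (y axis, from 0) of 6 p53 pathway genes in the 3 CAMKV-KD (left) and 3 Control (right) libraries of each panel; points are libraries, bars means and error bars SD. MDM2 overlaps between the groups, CDKN1A is lower in CAMKV-KD, and MDM4, PLK2, TP53I3 and GDF15 are higher.

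The cell cycle genes split: 3 of 5 fell, 1 rose and 1 was not called, with a median log2 fold change of −0.43. The share that fell was 60.0%, against 19.0% of all genes tested, and the share that rose 20.0%, against 17.3%. In all 5 the groups did not overlap, which was also so in 52.8% of all genes tested. CDKN1A, which encodes the cyclin-dependent kinase inhibitor p21 and is the best-known p53 target for arrest, was at 58.5, 59.3 and 62.0 CPM in CAMKV-KD libraries, against 72.1, 70.7 and 77.5 CPM in Control libraries. Every CAMKV-KD library lay under every Control library. The log2 fold change was −0.29 ± 0.053 (SE, adjusted p = 0.00984 in edgeR).

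GADD45A, a stress sensor that acts on the G2/M kinase CDK1, was at 52.8, 54.8 and 51.8 CPM in CAMKV-KD libraries, against 72.7, 70.6 and 71.9 CPM in Control libraries. The libraries of each group were close together, and it fell by 0.43 ± 0.042 on the log2 scale (SE, adjusted p = 0.00125 in edgeR). BTG2, an antiproliferative cofactor that promotes mRNA deadenylation, was at 34.6, 36.9 and 32.2 CPM in CAMKV-KD libraries, against 54.7, 50.6 and 50.5 CPM in Control libraries. It had the lowest fold change of the 4 genes that fell, −0.59 ± 0.072 on the log2 scale (SE, adjusted p = 0.00269 in edgeR).

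PLK2, a polo-like kinase of centriole duplication and stress response, went the other way. It was at 47.4, 47.5 and 46.8 CPM in CAMKV-KD libraries, against 25.4, 27.7 and 25.5 CPM in Control libraries, a ratio of 1.8. The groups were far apart relative to their spread, and the log2 fold change was 0.85 ± 0.057 (SE, adjusted p = 0.000462 in edgeR). Its relative PLK3, a stress-responsive kinase, was at 2.83, 4.45 and 4.9 CPM in CAMKV-KD libraries, against 8.01, 5.6 and 6.69 CPM in Control libraries. PLK3 was lower in every CAMKV-KD library, but its libraries were spread (coefficient of variation 26.9% in CAMKV-KD and 17.9% in Control), and the log2 fold change of −0.74 ± 0.26 (SE) was not called in edgeR (adjusted p = 0.0783) and was called in DESeq2 (adjusted p = 0.0341).

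Among the death genes, 11 were listed and 7 could be tested: 3 rose, 1 fell and 3 were not called, with a median log2 fold change of 0.12. Of those tested, 42.9% rose, against 17.3% of all genes tested, and 14.3% fell, against 19.0%. TP53I3 (PIG3), a quinone oxidoreductase that generates reactive oxygen species, differed most. It was at 67.8, 77.1 and 70.3 CPM in CAMKV-KD libraries, against 19.5, 29.7 and 28.0 CPM in Control libraries. The lowest CAMKV-KD library was well above the highest Control library, and the means of 71.7 ± 4.84 CPM in CAMKV-KD and 25.7 ± 5.49 CPM in Control (SD, n = 3 each) gave a ratio of 2.79. The log2 fold change was 1.48 ± 0.18 (SE, adjusted p = 0.0024 in edgeR) and stayed between 1.31 and 1.59 with any 1 library left out. TP53I3 lies on chromosome 2 from 24077433 to 24085861 on the minus strand, and FAM228B, which overlaps it on the other strand, averaged 5.55 CPM in CAMKV-KD and 2.94 CPM in Control libraries.

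PMAIP1 encodes NOXA, a BH3-only protein that neutralises MCL1. It was at 64.0, 63.7 and 67.6 CPM in CAMKV-KD libraries, against 50.6, 54.3 and 52.6 CPM in Control libraries. The groups did not overlap, and the log2 fold change was 0.31 ± 0.05 (SE, adjusted p = 0.00666 in edgeR). TP53INP1, a stress protein that promotes p53 phosphorylation and autophagy, was at 29.2, 28.3 and 29.2 CPM in CAMKV-KD libraries, against 19.8, 20.1 and 23.6 CPM in Control libraries. It rose by 0.45 ± 0.089 on the log2 scale (SE, adjusted p = 0.0132 in edgeR), and NDUFAF6, which overlaps it on the other strand, was also higher (log2 fold change 0.73, adjusted p = 0.0305 in edgeR), a call that held in only 1 of the 6 fits with 1 library left out (adjusted p up to 0.0886).

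RPS27L, a ribosomal protein relative that binds MDM2, was the death gene that fell. It was at 19.8, 17.2 and 18.9 CPM in CAMKV-KD libraries, against 22.8, 26.0 and 24.5 CPM in Control libraries. The groups did not overlap, with a log2 fold change of −0.39 ± 0.088 (SE, adjusted p = 0.0206 in edgeR), but the call was lost without CAMKV-KD 2, CAMKV-KD 3, Control 2 or Control 3 (adjusted p up to 0.0607). LACTB, a mitochondrial protein gene that overlaps RPS27L on the other strand, averaged 14.6 CPM in CAMKV-KD and 28.4 CPM in Control libraries (log2 fold change −0.96, adjusted p = 0.000711 in edgeR). Reads of the 2 genes cannot be told apart in their overlap, and RPS27L also shares much of its coding sequence with RPS27.

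Of the other tested death genes, AEN is a nuclease that digests DNA in apoptosis, PHLDA3 an inhibitor of AKT and TRIAP1 a small survival protein. AEN was at 90.4, 79.2 and 85.9 CPM in CAMKV-KD libraries, against 68.7, 76.5 and 89.7 CPM in Control libraries, and the groups overlapped. Their log2 fold changes were 0.12, 0.11 and 0.11, and the adjusted p-values in edgeR were 0.453, 0.568 and 0.251.

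The death receptor arm was almost silent. FAS, the receptor for FAS ligand, had 11, 8 and 9 counts in CAMKV-KD libraries, against 0, 2 and 4 counts in Control libraries, too few for the test; with no filter on low counts its log2 fold change was 2.14 with an adjusted p of 0.129 in edgeR. ACTA2, the smooth muscle actin gene that overlaps FAS on the other strand, was at 71.6 ± 3.46 CPM in CAMKV-KD and 19.3 ± 0.927 CPM in Control libraries (SD, n = 3 each; log2 fold change 1.89, adjusted p = 0.000103 in edgeR), and whether the FAS counts are reads of that gene was not tested. TNFRSF10C, a decoy receptor for TRAIL, had no count in CAMKV-KD libraries, against 4 counts in 1 Control library. EDA2R, a receptor of the TNF family, and PERP, a membrane protein of desmosomes and apoptosis, had no count in any of the 6 libraries, which at this depth leaves room for up to 0.145 CPM.

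**Figure D3:**
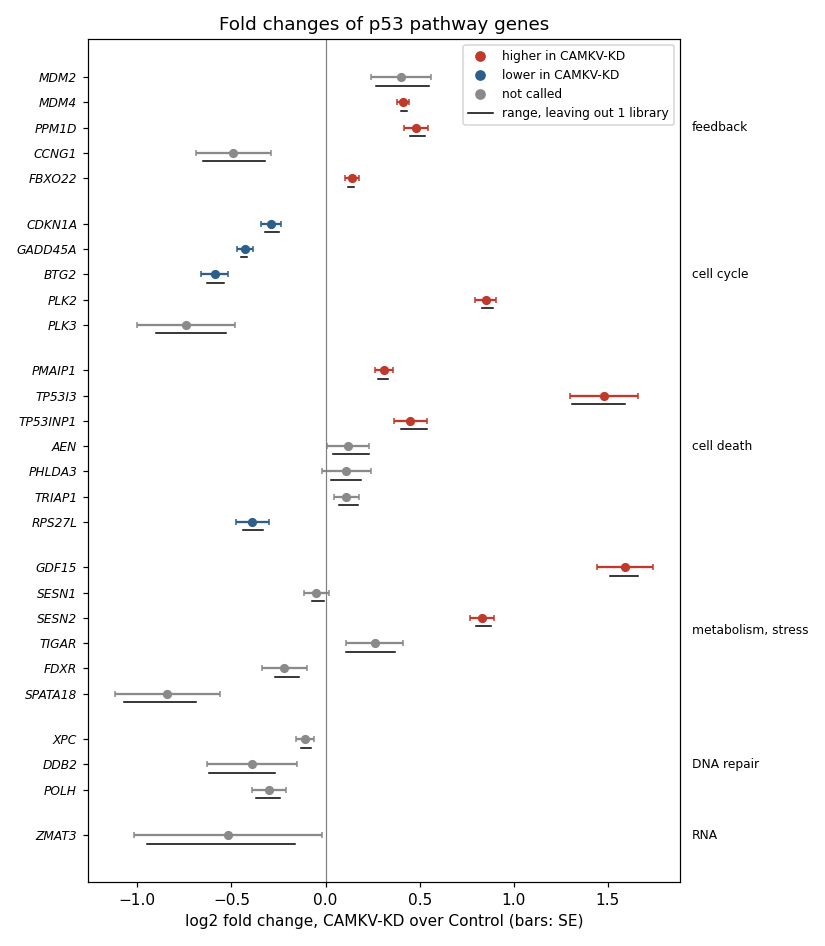
Log2 fold change of each tested p53 pathway gene, CAMKV-KD over Control (x axis), with SE bars and, as a thin black line, its range when 1 library is left out. Red points were called higher, blue points lower and grey points were not called; the feedback and stress genes that were called all lie to the right, and 3 of the 4 called cell cycle genes lie to the left.

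Of the 6 metabolism and stress genes, 2 rose and 4 were not called, with a median log2 fold change of 0.10. The 2 that rose were 33.3%, while 17.3% of all genes tested were called higher and 36.3% in either direction. GDF15, a stress-induced secreted hormone of the TGF-beta family, was scarce but had the highest ratio of all tested p53 pathway genes. It was at 5.17, 5.57 and 6.37 CPM in CAMKV-KD libraries (128, 115 and 143 counts), against 1.94, 1.65 and 2.06 CPM in Control libraries (47, 36 and 46 counts). The groups lay far apart, with a ratio of 3.03 and a log2 fold change of 1.59 ± 0.15 (SE, adjusted p = 0.00121 in edgeR).

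SESN2 encodes sestrin 2, a leucine sensor that restrains mTORC1. It was at 39.2, 38.9 and 37.9 CPM in CAMKV-KD libraries, against 20.8, 21.3 and 23.1 CPM in Control libraries, a ratio of 1.78. The libraries within each group were close together, and the log2 fold change was 0.83 ± 0.064 (SE, adjusted p = 0.000637 in edgeR). Its relative SESN1 was at 22.7, 24.9 and 24.3 CPM in CAMKV-KD libraries, against 24.2, 24.7 and 25.6 CPM in Control libraries. The groups of SESN1 overlapped, and its log2 fold change of −0.05 ± 0.066 (SE) was not called (adjusted p = 0.614 in edgeR) and turned to 0.01 when libraries were scaled by their totals. The difference between the fold changes of the sestrins was not tested.

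The other metabolic genes were not called. TIGAR, a phosphatase that diverts glucose to the pentose phosphate pathway, was at 13.8, 11.9 and 16.9 CPM in CAMKV-KD libraries, against 11.4, 11.7 and 12.6 CPM in Control libraries (log2 fold change 0.26 ± 0.15 SE, adjusted p = 0.244 in edgeR). FDXR, the reductase that passes electrons to ferredoxin in mitochondria, was at 6.02, 6.92 and 6.69 CPM in CAMKV-KD libraries, against 7.35, 7.02 and 8.48 CPM in Control libraries (log2 fold change −0.22 ± 0.12 SE, adjusted p = 0.221 in edgeR). SPATA18 (MIEAP), a mitochondrial quality control protein, was at 2.5, 1.5 and 1.78 CPM in CAMKV-KD libraries, against 2.56, 3.95 and 3.9 CPM in Control libraries (log2 fold change −0.84 ± 0.28 SE, adjusted p = 0.0663 in edgeR). The groups of TIGAR overlapped, and those of FDXR and SPATA18 lay apart by a narrow margin. SPATA18 passed the threshold in DESeq2 (adjusted p = 0.0334), without CAMKV-KD 1 (log2 fold change −1.07, adjusted p = 0.0498 in edgeR) and without Control 1 (log2 fold change −1.02, adjusted p = 0.0493 in edgeR).

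All 3 DNA repair genes had a log2 fold change under 0, with a median of −0.30, against 0.0045 for all genes tested. None was called in edgeR, against 36.3% of all genes tested, and 3 genes are too few to read as a trend. An unadjusted p below 0.05 in edgeR was seen in 1, and DESeq2 and limma-voom each called 1. POLH, the polymerase that copies past ultraviolet damage, was at 28.8, 30.0 and 33.9 CPM in CAMKV-KD libraries, against 40.8, 36.2 and 36.8 CPM in Control libraries. It was lower in each CAMKV-KD library and lay at the edge of the threshold (log2 fold change −0.30 ± 0.089 SE, adjusted p = 0.0514 in edgeR), with an adjusted p of 0.0136 in DESeq2 and 0.047 in limma-voom. XPC, which detects helix distortion in nucleotide excision repair, was at 63.6, 59.5 and 61.8 CPM in CAMKV-KD libraries, against 68.2, 64.7 and 66.7 CPM in Control libraries (log2 fold change −0.11 ± 0.046 SE, adjusted p = 0.12 in edgeR). DDB2, its partner in recognising ultraviolet lesions, was at 5.94, 6.39 and 9.32 CPM in CAMKV-KD libraries, against 7.44, 10.3 and 10.7 CPM in Control libraries (log2 fold change −0.39 ± 0.24 SE, adjusted p = 0.262 in edgeR). The groups of XPC lay narrowly apart and those of DDB2 overlapped.

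ZMAT3, an RNA-binding protein that controls splicing, was the most variable gene of the 27 in CAMKV-KD libraries. It was at 11.0, 38.1 and 26.4 CPM in CAMKV-KD libraries, against 47.7, 36.3 and 24.4 CPM in Control libraries. The groups overlapped, and the coefficient of variation was 54.0% in CAMKV-KD and 32.3% in Control, against medians over all genes of 9.46% in CAMKV-KD and 9.6% in Control. The log2 fold change of −0.52 ± 0.50 (SE) was not called (adjusted p = 0.467 in edgeR). TRIM22, an interferon-inducible ubiquitin ligase, had 0, 4 and 7 counts in CAMKV-KD libraries and none in Control libraries, too few for the test.

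**Figure D4:**
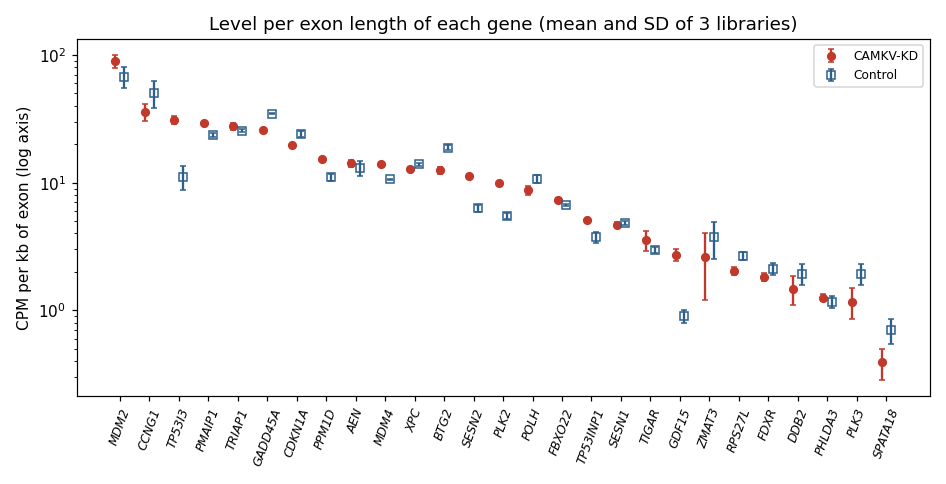
Level of each tested p53 pathway gene as CPM per kb of merged exon (y axis, log scale), mean and SD of 3 libraries, ordered by the CAMKV-KD level. Filled circles are CAMKV-KD and open squares Control; MDM2 stands above all others and SPATA18 below them in CAMKV-KD, and in Control the range of MDM2 overlaps that of CCNG1 and the range of SPATA18 that of GDF15.

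Set per exon length, the levels of the p53 pathway genes covered a wide range. MDM2 was at 89.1 ± 10.6 CPM per kb in CAMKV-KD and 67.6 ± 12.9 CPM per kb in Control libraries (SD, n = 3 each), at percentile 97.3 in CAMKV-KD and 96.1 in Control among all tested genes with a known length. MDM2 RNA was thus among the more abundant of all genes in both groups. Next in CAMKV-KD came CCNG1 (35.9 CPM per kb), TP53I3 (31.0), PMAIP1 (29.1), TRIAP1 (27.6), GADD45A (25.7) and CDKN1A (19.6), and SPATA18 came last (0.391). Ranges of neighbours in this order overlapped in 14 of 26 pairs in CAMKV-KD and in 15 of 26 pairs in Control, so much of the order between MDM2 and the lowest genes is not resolved. TP53I3 was at 31.0 CPM per kb in CAMKV-KD and at 11.1 CPM per kb in Control. Merged exons overstate the length of some genes: with the principal coding transcript as length, a choice made after seeing the data, MDM2 remained first in both groups and TP53I3 held place 3 in CAMKV-KD and place 10 in Control.

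MDM2 sits in a stretch of chromosome 12 whose genes varied between libraries to very different degrees. Within 1 Mb of MDM2, together with CDK4 at −11.05 Mb, 19 genes were listed and 11 tested. In edgeR 3 rose, CDK4 among them (27.3%, against 17.3% of all genes tested), and 0 fell (against 19.0%). The share called in either direction was thus 27.3%, against 36.3% of all genes tested. An unadjusted p below 0.05 in edgeR was seen in 3, and DESeq2 and limma-voom also called 3. CDK4, the G1 cyclin-dependent kinase whose gene is often gained together with MDM2 in tumours, was at 1488, 1419 and 1362 CPM in CAMKV-KD libraries, against 1161, 980.4 and 1070.4 CPM in Control libraries. It rose by 0.41 ± 0.07 on the log2 scale (SE, adjusted p = 0.00816 in edgeR), with no overlap between the groups. RAP1B, a small GTPase, was at 1392 ± 13.6 CPM in CAMKV-KD and 1120 ± 20.4 CPM in Control libraries (SD, n = 3 each; log2 fold change 0.31, adjusted p = 0.000459 in edgeR). The third gene that rose, RAB3IP, a Rab exchange factor outside the naming rule, had a log2 fold change of 0.17 (adjusted p = 0.04 in edgeR), and its call was lost with any 1 library left out (adjusted p up to 0.114).

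Other neighbours were not called despite large differences between libraries. NUP107, a nuclear pore subunit, was at 1792, 1059 and 1662 CPM in CAMKV-KD libraries, against 1413, 1418 and 334 CPM in Control libraries. CCT2, a chaperonin subunit, was at 993, 1416 and 1169 CPM in CAMKV-KD libraries, against 882, 2640.0 and 3325 CPM in Control libraries. One Control library thus stood far from the other two in each gene, Control 3 in NUP107 and Control 1 in CCT2. Without Control 1, CCT2 was called lower in CAMKV-KD (log2 fold change −1.32). YEATS4, a chromatin reader that lies between them, had a coefficient of variation of only 0.559% in CAMKV-KD and 1.18% in Control libraries, and its log2 fold change was −0.01 (adjusted p = 0.874 in edgeR). The carboxypeptidase M gene reached 70.6% in CAMKV-KD and 39.7% in Control libraries. The spread of MDM2, 11.9% in CAMKV-KD and 19.1% in Control, lay between these, and what sets the spread was not tested.

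**Figure D5:**
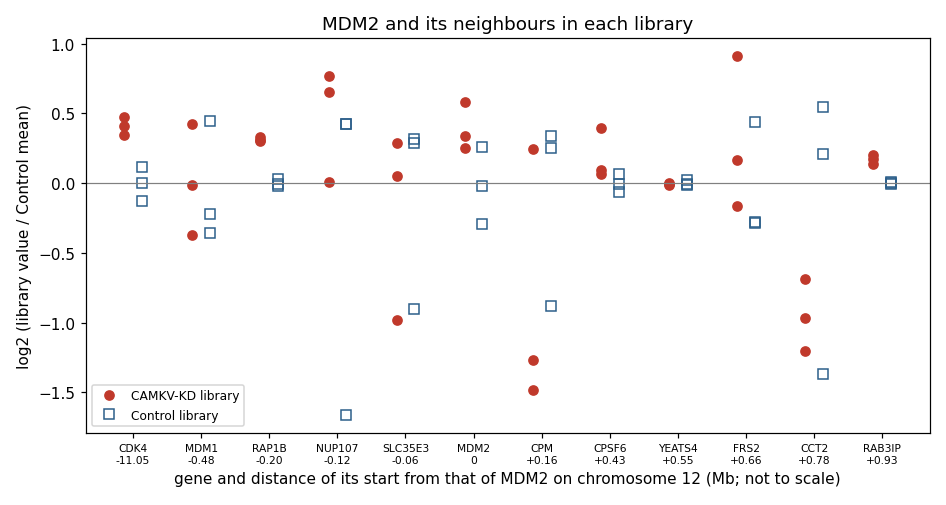
MDM2, the tested genes within 1 Mb of it and CDK4 in each library, as log2 of the value over the Control mean (y axis), in their order on chromosome 12 with the distance from MDM2 in Mb (CPM is here the carboxypeptidase M gene). Filled circles are CAMKV-KD and open squares Control libraries; CDK4 and RAP1B are higher in each CAMKV-KD library, YEATS4 is level, and NUP107 and CCT2 each have 1 Control library far from the others.

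Genes that act on p53 were called in each direction at a share near that of all genes. Of 39 family members and regulators 38 were tested, and 8 rose and 8 fell (21.1% each way, against 17.3% higher and 19.0% lower among all genes tested), with a median log2 fold change of −0.04. The acetyltransferase CREBBP, a coactivator of p53, was at 64.7, 92.1 and 73.3 CPM in CAMKV-KD libraries, against 37.0, 31.7 and 31.3 CPM in Control libraries (log2 fold change 1.20, adjusted p = 0.00298 in edgeR). TP53BP2 (ASPP2), which steers p53 to death genes, averaged 235 ± 8.03 CPM in CAMKV-KD and 146 ± 1.65 CPM in Control libraries (SD, n = 3 each; log2 fold change 0.69, adjusted p = 0.000241 in edgeR). SIRT1, which deacetylates p53, was at 122, 119 and 121 CPM in CAMKV-KD libraries, against 84.5, 84.2 and 56.7 CPM in Control libraries (log2 fold change 0.68, adjusted p = 0.0256 in edgeR), and its call was lost when any 1 CAMKV-KD library was left out (adjusted p up to 0.0705). RPL23, a ribosomal protein that inhibits MDM2, averaged 758 ± 16.2 CPM in CAMKV-KD and 1214 ± 35.3 CPM in Control libraries (SD, n = 3 each; log2 fold change −0.68, adjusted p = 0.000165 in edgeR). CUL9, a cytoplasmic p53-binding ligase, and CHEK2, a kinase that phosphorylates p53 after DNA breaks, also fell (log2 fold changes −1.38 and −0.35, adjusted p = 0.0254 and 0.0234 in edgeR). The call of CUL9 was lost without CAMKV-KD 2, Control 1 or Control 3, and that of CHEK2 held in only 1 of the 6 fits with 1 library left out.

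A further 60 p53 target genes, of which 49 were tested, were called about as often as genes at large: 10 rose and 7 fell (34.7% called, against 36.3% of all genes tested), with a median log2 fold change of 0.04. IGFBP3, which binds insulin-like growth factors, was at 389, 388 and 522 CPM in CAMKV-KD libraries, against 85.2, 97.0 and 80.3 CPM in Control libraries (log2 fold change 2.31, adjusted p = 0.000434 in edgeR). TRIM38, a ubiquitin ligase, averaged 20.1 ± 1.09 CPM in CAMKV-KD and 7.04 ± 0.288 CPM in Control libraries (SD, n = 3 each; log2 fold change 1.51, adjusted p = 0.000296 in edgeR). AIFM2 (FSP1), a ferroptosis suppressor, had a log2 fold change of 1.33 (adjusted p = 0.031 in edgeR) that was called in only 1 of the 6 fits with 1 library left out. PRKAB2, a subunit of AMP-activated kinase, the membrane protein NINJ1 and the immediate early gene IER5 fell, with log2 fold changes of −1.08, −0.87 and −0.71 and adjusted p-values of 0.0221, 0.00226 and 0.00165 in edgeR. The call of PRKAB2 was lost without CAMKV-KD 3, Control 1 or Control 2. BAX and BBC3, the pore former and the BH3-only protein PUMA of the mitochondrial death route, are named here after their values were seen. BAX was at 45.3, 42.1 and 45.2 CPM in CAMKV-KD libraries, against 37.4, 37.1 and 36.8 CPM in Control libraries (log2 fold change 0.25, adjusted p = 0.0155 in edgeR), and BBC3 was not called (log2 fold change −0.59, adjusted p = 0.329 in edgeR). The call of BAX was lost without CAMKV-KD 1, CAMKV-KD 3 or Control 3.

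p53 lowers many cell cycle genes indirectly, through p21 and the DREAM repressor complex. All 40 such genes on the list used were tested, and 8 rose and 12 fell (50% called, against 36.3% of all genes tested), with a median log2 fold change of −0.0048. The genes that fell included the mitotic genes KIF2C, TOP2A and CENPA, with log2 fold changes of −0.74, −0.66 and −0.55 and adjusted p-values of 0.00131, 0.000122 and 0.0161 in edgeR. TOP2A, the DNA topoisomerase of chromosome separation, was at 812, 798 and 805 CPM in CAMKV-KD libraries, against 1295, 1296 and 1236 CPM in Control libraries. The genes that rose included BRCA1, MCM5 and BLM, which act in DNA replication and repair, with log2 fold changes of 0.89, 0.87 and 0.67 and adjusted p-values of 0.021, 0.000443 and 0.0126 in edgeR. MCM5, a subunit of the replicative helicase, was at 184, 165 and 179 CPM in CAMKV-KD libraries, against 94.1, 93.2 and 101 CPM in Control libraries. BRCA1 was called in 2 of the 6 fits with 1 library left out, and CENPA was lost without Control 3.

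SESN2, GDF15 and PMAIP1 are also known as genes of the integrated stress response, in which the transcription factor ATF4 acts. They are named here after they were seen to rise. The other genes of the 32 were not sorted by this response, and the stress sensor GADD45A fell (log2 fold change −0.43). A list of ATF4 and its targets, which holds none of the 32 genes, was therefore set beside them: of 12 genes tested, 6 rose and 2 fell (66.7% called, against 36.3% of all genes tested), with a median log2 fold change of 0.30. DDIT3 (CHOP), a death-promoting transcription factor, was at 49.6, 54.9 and 53.8 CPM in CAMKV-KD libraries, against 27.2, 29.7 and 28.3 CPM in Control libraries (log2 fold change 0.89, adjusted p = 0.000579 in edgeR). CHAC1, which degrades glutathione, and the pseudokinase TRIB3 had log2 fold changes of 0.95 and 0.62 (adjusted p = 0.00414 and 0.00237 in edgeR). ATF4 itself, named after its values were seen, averaged 399 ± 8.2 CPM in CAMKV-KD and 295 ± 9.78 CPM in Control libraries (SD, n = 3 each; log2 fold change 0.43, adjusted p = 0.000726 in edgeR). In the other direction, DDIT4, a repressor of mTORC1 that p53 also activates, averaged 92.2 ± 0.364 CPM in CAMKV-KD and 144 ± 5.22 CPM in Control libraries (SD, n = 3 each; log2 fold change −0.64, adjusted p = 0.000337 in edgeR). ASNS, asparagine synthetase, fell by only 0.11 on the log2 scale (adjusted p = 0.0261 in edgeR), and its call was lost in 5 of the 6 fits with 1 library left out. The part of ATF4 in the values of SESN2, GDF15 and PMAIP1 was not tested.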

How the data were processed

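RNA sequencing was measured in 3 CAMKV-KD and 3 Control libraries of NGP cells. The authors deposited whole-number counts per gene with no normalisation. The submitters' processing notes name HISAT2 2.1.0, StringTie 1.3.5, FastQC 0.11.2 and the build GRCh38.p13. The annotation release, strand setting and route from StringTie to counts per gene: not given in the sources used here. Per the labels' protocols, libraries came from 100 ng of total RNA extracted with TRIzol and made with a SMARTer mRNA-Seq kit. All count columns were matched to a library (0 unmatched). The authors' own test was DESeq2, per the series' design text.

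The groups were compared with edgeR 4.0.16 under R 4.3.3 (filterByExpr with a minimum count of 10, TMM, glmQLFit and glmQLFTest, group as the only term), Benjamini-Hochberg adjusted over 13366 genes, with SE as the absolute log2 fold change over the square root of F. The script was tested on simulated data. Where a symbol had several entries, the entry with the highest mean count was used. Alternatives were DESeq2 1.42.0, limma-voom (limma 3.58.1), scaling by library totals or upper quartiles, no filter, each library left out, and a replicate block. Counts from 3 libraries a group, without molecular identifiers, mean that floors cover counting error only. With 3 against 3 libraries, an exact two-sided permutation test of 1 gene cannot go below p = 0.1, so none is given. Chi-square per degree of freedom was 41.5 to 52.1 within groups and 105 to 119 between groups, so all 6 libraries were kept as separate. Positions, exon lengths and overlaps came from GENCODE 29 (97.7% of entries matched by Ensembl identifier, symbol or older symbol). Figures were drawn with matplotlib 3.10.9.

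The 32 genes, the further lists and the tests were chosen with earlier results of these data known. Named were the 32 genes and CAMKV, up to 3 called genes in each direction per list by absolute fold change, and near MDM2 the 4 genes with the highest level per length and CDK4. One further gene of the rule is not reported here.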

Additional observations from a re-analysis of the deposited data

How the results depend on the processing

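Over the 27 tested p53 pathway genes and 12 alternative settings, 300 of 324 values kept their direction and side of the threshold, 13 lost a call (FBXO22 and RPS27L), 10 gained one (MDM2, CCNG1, PLK3, SPATA18 and POLH) and 1 turned its direction, SESN1, whose log2 fold change became 0.0113 with library totals. DESeq2 called 7 p53 pathway genes lower in place of 4, and leaving out 1 library gave 3 to 6 lower and 8 to 9 higher. Scaling by library totals moved the median of all genes to 0.06 (log2), with 2812 called higher and 2175 lower (56.4% of calls higher, 47.7% with TMM). With 1 library left out, 5 to 7 regulators were lower in place of 8, 6 to 10 further targets higher in place of 10, 1 to 2 ATF4 targets lower in place of 2, and 0 to 1 gene near MDM2 lower in place of 0 (CCT2, without Control 1). Library totals also gave 1 ATF4 target lower. Replicate numbers did not pair the libraries (correlations of deviations −0.01, −0.06 and −0.03, and no library correlated best with its own number). With the replicate block 1526 of all genes were called higher, 5 regulators were higher in place of 8, and 3 regulators and 1 ATF4 target were lower, and FBXO22 and RPS27L were not called (adjusted p = 0.092 and 0.0898 in edgeR). Genes under about 10 counts a library, such as FAS and TRIM22, were limited by depth. The causes of these shifts were not tested.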
